A study of Mus musculus with 6 samples.

Results

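The cells described here were basal keratinocytes of mouse dorsal skin that carried transcripts of genes taken as upper hair follicle markers and none of genes taken as bulge markers. They are called gated basal cells below. They were picked from single-cell RNA-seq count matrices by measured counts. A barcode was kept when it had 500 to 7000 detected genes and at most 10% of its UMIs (unique molecular identifiers, each standing for 1 captured RNA molecule) on mitochondrial genes. It had to hold at least 100 UMIs of Krt5 and Krt14 together and under 100 of Krt1 and Krt10 together per 10000 UMIs. Finally, it had to hold at least 3 UMIs over Wnt10a, Dlk2, Ntrk2 and Slco2a1 and 0 UMIs over Thbs2, Smoc2, Mmp3, Lhx2, Lgr5 and Krt24. Of 61031 barcodes, 55177 passed the limits on genes and mitochondrial UMIs, 29449 were basal keratinocytes by their keratins, and 3084 were gated basal cells, which is 5.05% of the barcodes and 10.5% of the basal keratinocytes. Both marker sets were widespread. Without depilation, at 0 h, 59.2% of basal keratinocytes held at least 3 UMIs of the first and 82.2% a UMI of the second. The gate alone therefore does not place a cell in the upper follicle.

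The study followed hair regrowth after depilation, the plucking of hair from resting (telogen) back skin, in wild-type male FVB mice aged 55 to 57 days. There were 6 libraries, the 0 h library, which has no depilation in its label, and libraries from 4 h and 16 h and from 2 d, from 4 d and from 6 d after plucking. Each was 1 pool of cells from 2 mice in equal numbers. No group had a second library and no other treatment was given, so the difference between 2 time points has no replicate check and carries no test. The study's methods describe separate digestion protocols for telogen and anagen skin, and which library had which is not given in the sources used here, so that time and digestion cannot be told apart.

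In time order, which holds for every series of 6 values below, the gated basal cells numbered 276, 927, 521, 406, 523 and 431. Their summed UMIs were 2420621, 8297640, 6512751, 3883065, 4196558 and 3810479, and their median UMIs per cell were 8047.5, 8568, 11477, 8242, 7243 and 7739. The 16 h cells were thus the deepest, and the 0 h library gave the smallest sum. Levels are CPM, the UMIs of a gene for every 1000000 UMIs of the summed cells of a library, and intervals on them are exact 95% Poisson or binomial intervals that cover counting error only. Among all barcodes, 430 sequences occurred in more than 1 library, and 2 of the gated basal cells had such a barcode. No doublet caller was run. At least 2 UMIs over all genes on the lists of other cell types were held by 1594 of the 3084 gated basal cells, and 39 held 2 or more UMIs of 13 defining markers of T cells, Langerhans cells, melanocytes and fibroblasts. The fibroblast list includes Sparc, its most abundant gene in gated basal cells, so the larger count is not one of mixed cells alone.

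The basal layer lines the whole follicle and the surface epidermis, is anchored to the basement membrane, and renews the layers above it. Its upper follicle portion, the infundibulum and isthmus above the bulge, opens to the surface and surrounds the duct of the sebaceous gland. The bulge below it houses the stem cells that regrow the lower follicle when the resting phase ends and the growth phase (anagen) begins.

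The gated basal cells made up 7.05% (6.27% to 7.90%), 17.3% (16.3% to 18.4%), 8.88%, 8.10%, 10.4% and 10.05% of the basal keratinocytes. The 4 h share was the highest, with an interval apart from those of the 5 other libraries. The gate itself moved with time. A Smoc2 UMI, which excludes a cell, was present in 75.4%, 24.3%, 53.1%, 61.5%, 42.9% and 46.0% of basal keratinocytes, and the 4 h library was the lowest. Mmp3, another exclusion gene, went the other way, with 6.01%, 30.3%, 21.4%, 10.1%, 5.04% and 5.92%. Any of the 6 exclusion genes was found in 82.2%, 67.8%, 76.4%, 74.7%, 63.7% and 67.2%, which at 4 h was lower than at 0 h but not the lowest. Cells with at least 3 UMIs of the 4 inclusion genes, whatever their bulge gene UMIs, were 59.2%, 73.6%, 62.3%, 45.5%, 34.6% and 35.7% of basal keratinocytes. The part of these gate genes in the 4 h share was not tested.

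**Figure D1:**
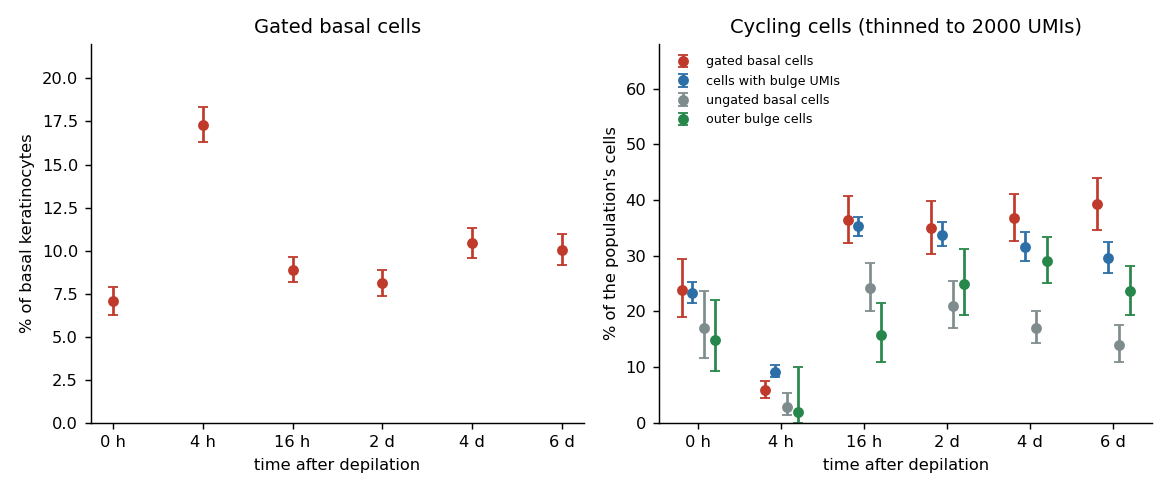
Left: gated basal cells as a percentage of basal keratinocytes in each library, with exact 95% binomial intervals; right: percentage of cycling cells in the gated basal cells and in the comparison populations, each cell thinned to 2000 UMIs, with the same intervals. The 4 h library had the highest share of gated basal cells (17.3%) and the lowest share of cycling cells among them (5.84%).

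The gate was narrow, and many cells lay close to its edges. Exactly 3 UMIs of the 4 inclusion genes were held by 946 of the 3084 cells and 6 or more by 984. Just outside, 1189 basal keratinocytes held 2 such UMIs and no bulge gene UMI, and 2699 held 3 or more together with a single bulge gene UMI. All basal keratinocytes with 3 or more inclusion UMIs and at least 1 bulge gene UMI, 12374 cells, form the nearest comparison population and are called cells with bulge UMIs. The 2498 basal keratinocytes with 0 UMIs of all 10 genes are called ungated basal cells, and the 1494 with 3 or more bulge gene UMIs and no inclusion UMI are called outer bulge cells. T cells (2920), which should make no keratinocyte RNA, serve as a comparison for RNA from other cells in each library. Their gate set no limit on Krt1 and Krt10, which summed to a mean of 3694 CPM in them, and no doublets were removed. Their levels can thus hold mixed barcodes beside free RNA, which were not told apart here.

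The inclusion genes set the gate, so their levels are given only as a description. Wnt10a, a Wnt ligand, stood at 191, 266, 202, 184, 312 and 256 CPM, with its highest level at 4 d. Slco2a1, a prostaglandin transporter, stood at 254, 287, 83.2, 209, 119 and 146 CPM and was lowest at 16 h. Ntrk2, the receptor for brain-derived neurotrophic factor, stood at 73.5, 12.7, 36.4, 48.9, 59.1 and 57.5 CPM, which at 4 h was 5.81-fold under the 0 h library. Dlk2, a relative of the Notch ligands, ranged from 36.3 CPM at 2 d to 97.6 CPM at 4 h.

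Of the 2 label markers outside the gate, Lgals9 and Ly6a went opposite ways against cells with bulge UMIs. Lgals9, which encodes galectin-9, stood at 48.3, 23.9, 59.7, 66.4, 64.6 and 74.5 CPM, against 23.2, 19.9, 34.8, 36.7, 23.3 and 39.3 CPM in cells with bulge UMIs and 17.2, 12, 8.66, 19.1, 20.7 and 30.9 CPM in T cells. It was higher in the gated basal cells in all 6 libraries. Ly6a, which encodes the surface antigen Sca-1, stood at 278, 610, 345, 333, 208 and 254 CPM, lower in all 6 libraries than the 396, 792, 475, 378, 286 and 341 CPM of cells with bulge UMIs. In ungated basal cells Ly6a had 280, 292, 176, 215, 71.1 and 143 CPM, close to the gated basal cells at 0 h and lower in the 5 later libraries. Where Ly6a stood thus depended on the comparison cells.

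Krt5, a keratin of the basal layer, ranged from 4675 to 7355 CPM, a level that the gate itself set. A UMI of Cd34, the surface marker of mouse bulge stem cells, was found in 0%, 0.539%, 1.92%, 0.246%, 0.574% and 0.232% of gated basal cells. The shares were 1.67%, 1.96%, 2.74%, 0.80%, 2.06% and 2.46% in cells with bulge UMIs and 23.1%, 26.4%, 48.2%, 14.3%, 18.2% and 25.2% in outer bulge cells, so that a low Cd34 share was not particular to the gated basal cells. At 0 h this was 0 of 276 cells, for which the exact interval reaches 1.33% after thinning to 2000 UMIs. Krt15, a keratin shared by bulge and basal layer, remained abundant at 5456, 743, 2175, 2007, 4408 and 3305 CPM, with a 7.34-fold lower level at 4 h than at 0 h.

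Krt79 and Cst6, known from the upper follicle's inner layers, stood above the T cells by CPM in some libraries only. Krt79, a keratin of the infundibulum and sebaceous duct, stood at 15.3, 47.0, 205, 577, 557 and 229 CPM in gated basal cells, but at 277, 25.0, 47.6, 433, 504 and 568 CPM in T cells. Cst6, a cysteine protease inhibitor of cornifying cells, stood at 38.8, 54.7, 309, 1666, 1659 and 805 CPM, while T cells had 2752, 712, 178, 2956, 2440 and 3415 CPM. A single cell held 27.0%, 41.7% and 41.3% of the Cst6 UMIs of the gated basal cells at 2 d, 4 d and 6 d.

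After thinning to 2000 UMIs, a Krt79 UMI was present in 2.54%, 3.57%, 6.33%, 13.3%, 17.3% and 11.4% of gated basal cells. In T cells the share was 4.64%, 2.38%, 5.98%, 19.3%, 17.7% and 12.2%. Without thinning the shares were 6.16%, 8.63%, 22.6%, 29.6%, 35.2% and 26.7% against 5.26%, 2.80%, 6.75%, 18.9%, 22.6% and 14.1%, at median depths of 7243 to 11477 UMIs in gated basal cells and 2057.5 to 2776.5 UMIs in T cells. The thinned Cst6 shares were 6.16%, 6.27%, 15.6%, 25.4%, 26.5% and 22.3% in gated basal cells and 11.3%, 4.37%, 8.70%, 41.1%, 36.2% and 43.9% in T cells. By the thinned shares Krt79 and Cst6 stood above the T cells at 4 h and 16 h and under them in the 4 other libraries, some by less than 1 percentage point, while the unthinned Krt79 shares were above the T cells in all 6. The part of free RNA in the higher values of the later days was not tested. Defb6, a beta-defensin, stood at 7.44, 43.5, 112, 428, 305 and 219 CPM, not above the T cells in any library, which had 160, 110, 113, 656, 312 and 579 CPM. Krt17, a follicle keratin, was under the T cells at 4 h only, with 830 against 1292 CPM, although a Krt17 UMI was in 46.8% of gated basal cells and 11.5% of T cells there after thinning. Plet1, a marker of the isthmus and sebaceous duct, was above T cells in each library, at 366, 214, 124, 144, 78.9 and 175 CPM against 59.6, 27.8, 13, 35.3, 34.7 and 83.1 CPM, and was 4.65-fold lower at 4 d than at 0 h. In the ungated basal cells Krt79 reached 196, 439, 2684, 4685, 7156 and 4631 CPM, well over the gated cells.

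Sostdc1 and Fst, which both encode secreted inhibitors, were the genes that stood farthest above the cells with bulge UMIs, by the smallest of the 6 library differences. Sostdc1, which encodes an extracellular modulator of Wnt and BMP signalling, stood at 510, 48.2, 419, 501, 732 and 616 CPM. Cells with bulge UMIs had 131, 6.23, 98.1, 159, 194 and 188 CPM and T cells 30.4, 3.70, 2.89, 59.3, 106 and 87.1 CPM. Sostdc1 was thus higher in gated basal cells than in both of these in all 6 libraries, while its own 4 h level was 10.6-fold under that at 0 h (ratio 0.0945, interval 0.0842 to 0.106). It was not among the 10 genes at least 2-fold above the ungated basal cells in all 6 libraries.

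Thinned to 2000 UMIs, 44.2%, 5.84%, 42.8%, 42.1%, 54.5% and 43.9% of gated basal cells held a Sostdc1 UMI, against 1.55%, 0%, 0.543%, 3.94%, 7.55% and 5.14% of T cells. Without thinning these were 54.7%, 11.5%, 63.3%, 56.6%, 65.6% and 60.3%, against 3.95%, 0.509%, 0.794%, 5.48%, 10.3% and 10.2%. Sostdc1 RNA in the gated basal cells was above the T cells in every library. Fst, which encodes the activin antagonist follistatin, stood at 404, 516, 171, 250, 277 and 421 CPM, against 86.5, 139, 50.6, 66.4, 74.8 and 117 CPM in cells with bulge UMIs. It did not share the low 4 h level, and in ungated basal cells its 4 h level was 1498 CPM, above the gated basal cells of that library.

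Against cells with bulge UMIs, 12 of 5493 genes (0.218%) were at least 2-fold higher in all 6 libraries, with at least 20 CPM in the higher population, and 3 (0.0546%) were at least 2-fold lower. The populations were chosen by counts, so this is a description without a test. The higher genes were Fst, Sostdc1, Pdlim4, Adh7, Vsnl1, Aldh3a1, C1qtnf12, Adgrl2, Adgrl3, Rassf9, Susd2 and Gas7. Aldh3a1, an aldehyde dehydrogenase, stood at 68.2, 30.2, 229, 91.7, 67.0 and 46.5 CPM against 13.4, 5.97, 54.1, 28.8, 26.7 and 16.3 CPM. The ungated basal cells had 52.9, 29.8, 249, 84.5, 71.7 and 31.7 CPM, more than the gated basal cells at 16 h and 4 d. C1qtnf12, which encodes a secreted C1q family protein, stood at 166, 86.0, 243, 182, 325 and 255 CPM against 46.9, 30.8, 69.3, 59.7, 130 and 86.8 CPM. Adh7, an alcohol dehydrogenase that can oxidise retinol, stood at 59.9, 9.88, 90.7, 118, 113 and 102 CPM against 23.1, 2.85, 29.4, 46.3, 36.5 and 37.0 CPM. Like Sostdc1, Adh7 was at its lowest in the 4 h library. With at least 6 inclusion UMIs 6 genes were higher, and among cells of 4000 to 15000 UMIs 19 were. The lower genes were Igfbp7, Cysltr1 and Sparc, but none remained lower by 2-fold with at least 6 inclusion UMIs. None did without cells holding UMIs of other cell types either. Sparc is itself on the fibroblast list behind that filter, so for Sparc the filter selects on the gene compared. Sparc, which encodes a matrix protein, stood at 87.6, 68.8, 56.4, 76.7, 85.5 and 95.3 CPM against 211, 144, 202, 205, 254 and 298 CPM.

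Not all gated basal cells shared the Sostdc1 and Fst pattern. Cells with 5 or more UMIs of these 2 genes together made up 44.9%, 26.9%, 51.8%, 44.8%, 52.2% and 55.9%, and cells with 0 made up 42.4%, 55.3%, 29.6%, 41.1%, 32.1% and 34.6%. Only 12.7%, 17.8%, 18.6%, 14.0%, 15.7% and 9.51% lay between. The median depth of the 2 sets was close at 0 h, with 7877 UMIs for 5 or more and 8396 for 0, but apart at 6 d, with 8895 against 6824. This cut was chosen after the values were seen, and among cells with bulge UMIs only 7.33% to 17.3% reached 5 UMIs.

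**Figure D2:**
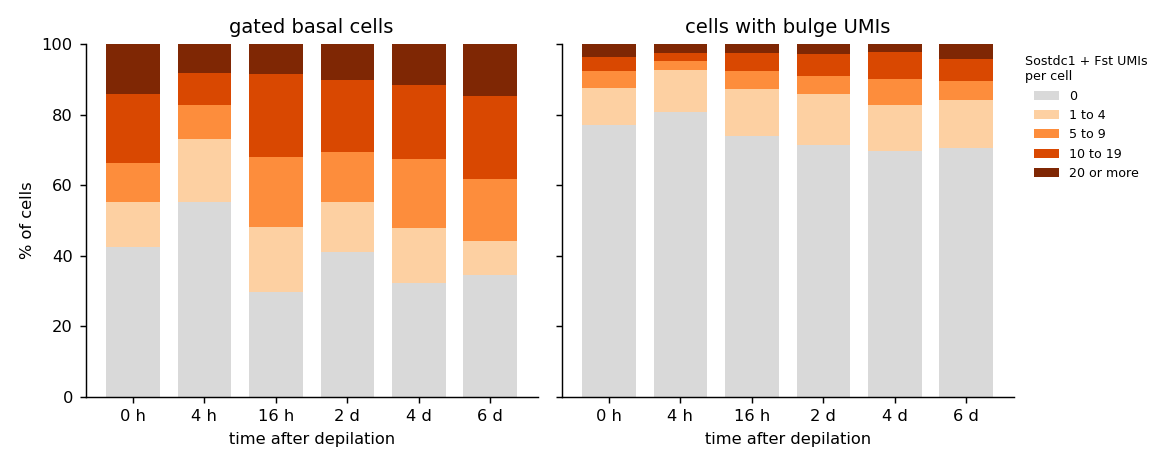
Stacked bars of the percentage of cells holding 0, 1 to 4, 5 to 9, 10 to 19 or at least 20 UMIs of Sostdc1 and Fst together, for gated basal cells and for cells with bulge UMIs in each library. In gated basal cells the 0 class and the classes of 5 or more were both large in every library, with 9.51% to 18.6% of cells between.

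The 2 sets differed in many other genes. Of 5649 genes, 69 (1.22%) were at least 2-fold higher in all 6 libraries in cells with 5 or more Sostdc1 and Fst UMIs than in cells with 0, and 62 (1.1%) were at least 2-fold lower. Vsnl1, which encodes a calcium sensor, had the widest smallest difference, 61.4, 11.7, 95.1, 54.3, 108 and 83.5 CPM against 0.956, 0.216, 3.50, 1.46, 0.807 and 1.79 CPM. Sox9, a transcription factor of the outer root sheath and bulge, stood at 447, 253, 266, 294, 146 and 212 CPM against 23.9, 11.9, 22.7, 38.7, 21.0 and 27.7 CPM. Runx1, a transcription factor with a role in hair follicle activation, stood at 229, 183, 77.3, 114, 75.3 and 81.4 CPM against 18.2, 28.6, 9.91, 6.57, 7.27 and 9.84 CPM. Aldh3a1, Adh7 and Krt17 lay on the same side. Lgals9, too, was higher there, at 84.7, 26.6, 80.1, 93.7, 88.0 and 95.4 CPM against 15.3, 21.2, 23.3, 27.8, 17.0 and 34.9 CPM, but at 4 h the difference was small.

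Among the genes higher in the cells without Sostdc1 and Fst, Igfbp3, which encodes a binding protein of insulin-like growth factors, stood at 260, 249, 381, 422, 494 and 583 CPM, against 5.58, 48.7, 3.34, 8.38, 4.65 and 16.9 CPM. Wnt7b, a Wnt ligand, stood at 41.1, 51.9, 67.0, 73.8, 81.5 and 43.9 CPM against 5.58, 3.16, 2.22, 5.43, 15.2 and 6.33 CPM. Bmp3, Wnt5a, Sfrp1 (a secreted Wnt inhibitor), Igfbp7, Sparc and the gap junction gene Gja1 were on that side too. Ly6a stood at 417, 881, 470, 487, 358 and 433 CPM there, against 143, 213, 287, 230, 138 and 176 CPM in the cells with 5 or more. The label markers Lgals9 and Ly6a were thus high on opposite sides of the split. Ntrk2, one of the inclusion genes, was mostly on the Sostdc1 and Fst side, at 122, 24.4, 56.2, 76.4, 77.0 and 71.3 CPM against 25.8, 6.06, 2.91, 6.57, 12.1 and 19.7 CPM.

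Against ungated basal cells, 10 of 5694 genes (0.176%) were at least 2-fold higher in gated basal cells in all 6 libraries and 23 (0.404%) at least 2-fold lower. The higher genes numbered 32 with at least 6 inclusion UMIs and 21 among cells of 4000 to 15000 UMIs. Nrg1, a ligand of the ERBB3 and ERBB4 receptors, stood at 62.4, 128, 23.0, 56.4, 11 and 38.3 CPM against 18.4, 47.7, 6.37, 16.4, 2.51 and 12.9 CPM. Jag2, a Notch ligand, was steady at 131, 144, 155, 112, 150 and 140 CPM against 59.8, 22.7, 49.4, 46.4, 60.8 and 36.3 CPM. Cyp26b1, which degrades retinoic acid, stood at 148, 131, 19.2, 29.4, 33.4 and 83.5 CPM. Anln, Mcm2, Diaph3 and Cenpf, genes of DNA replication and cell division, were also among the 10. Krt79, Defb6, Ly6g6e, 4833423E24Rik and Sprr1a were the 5 lowest.

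Against outer bulge cells, only Lgals9 and Egln3 of 5850 genes (0.0342%) were at least 2-fold higher in all 6 libraries, while 49 (0.838%) were at least 2-fold lower. Without the cells holding 2 or more UMIs of other cell types, 8 genes were lower, and the count of higher genes was 1 to 5 under the other settings tried. Egln3, an oxygen-dependent prolyl hydroxylase, stood at 37.6, 17.7, 24.6, 56.9, 68.2 and 74.0 CPM against 17.1, 5.52, 4.29, 24.5, 7.46 and 20.7 CPM. Grem1, Ccn2, Tbx1, Shisa2 and Cd34 were the 5 lowest, and Cd34 stood at 139, 66.2, 208, 26.8, 40.4 and 61.3 CPM in outer bulge cells against at most 2.30 CPM in gated basal cells. The outer bulge cells of the 4 h library numbered only 53.

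Next, each later library was set against the 0 h library for genes with at least 50 UMIs in the 2 libraries together and at least 50 CPM in the higher one. At 4 h, 837 of 3219 genes (26.0%) were at least 2-fold higher and 410 (12.7%) at least 2-fold lower. By 16 h, 423 (14.0%) and 285 (9.42%) of 3026 genes were. In the 2 d library 88 (3.2%) were higher and 208 (7.56%) lower of 2752 genes, in the 4 d library 210 (7.28%) and 244 (8.46%) of 2885, and in the 6 d library 101 (3.71%) and 107 (3.93%) of 2726. By these shares the 4 h library was the farthest from 0 h and the 6 d library the nearest. With at least 6 inclusion UMIs the 2 d and 6 d libraries were close, with 136 higher and 240 lower against 182 higher and 165 lower, and 336 genes were higher at 4 d. The median log2 ratio of all genes compared was 0.36, 0.26, 0.09, 0.17 and 0.08 from 4 h to 6 d, to be read beside each list below. Scaling by TMM factors turned the balance at 16 h from 59.7% to 42.0% higher (264 higher, 364 lower) and moved it at 4 d from 46.3% to 30.4% higher (133 higher, 304 lower).

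Ribosome biogenesis genes were higher at 4 h almost throughout. Of 15 compared, 13 were at least 2-fold higher and none lower, with a median log2 ratio of 1.81. Nop2, an rRNA methyltransferase, stood at 10.7, 89.5, 26.7, 12.1, 24.3 and 19.4 CPM, which was 8.34-fold (interval 5.64 to 12.8) over 0 h at 4 h. Rrp9, a processing factor of rRNA, stood at 17.8, 113, 35.0, 13.4, 17.9 and 21.0 CPM, 6.38-fold (4.70 to 8.87) over 0 h at 4 h. Npm1, which encodes the abundant nucleolar protein nucleophosmin, stood at 1246, 3092, 1934, 1236, 1569 and 1468 CPM. These genes peaked in a single library, and at 2 d, 4 d and 6 d none of the 10 or 11 compared was 2-fold higher, while 2 were lower at 2 d and 2 at 4 d.

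Integrin and basement membrane genes, which anchor basal cells, were also higher at 4 h, with 8 of 13 at least 2-fold higher at 4 h (median log2 ratio 1.09) and 0 in either direction in the 4 later libraries. Itgb1, the common beta chain of epidermal integrins, stood at 196, 807, 196, 172, 146 and 191 CPM, 4.12-fold (3.75 to 4.53) over 0 h at 4 h. Itga6, the alpha chain of the hemidesmosome integrin, stood at 392, 1011, 408, 433, 292 and 300 CPM. Both were close to their 0 h level again at 16 h. Itgb6, induced in wounded epidermis, stood at 9.91, 44.7, 15.8, 12.9, 18.6 and 21.8 CPM.

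Stress keratins and alarm genes were 2-fold higher in 4 of 6, 2 of 5, 4 of 7, 1 of 5 and 3 of 6 cases from 4 h to 6 d (median log2 ratios 1.45, 0.78, 1.74, 0.34 and 0.69), and none was lower. Members of this list include Krt6b, S100a8 and S100a9, and a single cell held 68.5% of the S100a8 UMIs and 81.4% of the S100a9 UMIs at 2 d. Krt6a, a keratin of activated epidermis, stood at 30.2, 1476, 508, 150, 57.0 and 75.8 CPM, 49.0-fold (38.9 to 62.5) over 0 h at 4 h. In T cells it had 1.32, 422, 21.6, 14.0, 6.09 and 59.4 CPM, so that the 4 h and 16 h levels were above the T cells and the 6 d level was close to them. Krt6b had 69.1 CPM at 4 h, under the 501 CPM of T cells, and the part of free RNA in it was not tested. Sh2d5, which encodes an SH2 domain adaptor, had 1, 726, 10, 3, 1 and 2 UMIs, a ratio of 212 (37.9 to 8377) at 4 h, and 4.63 CPM in the T cells of that library against 87.5 CPM. Cstdc5, a cystatin family gene, stood at 9.50, 467, 458, 204, 47.7 and 170 CPM, staying high at 16 h.

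**Figure D3:**
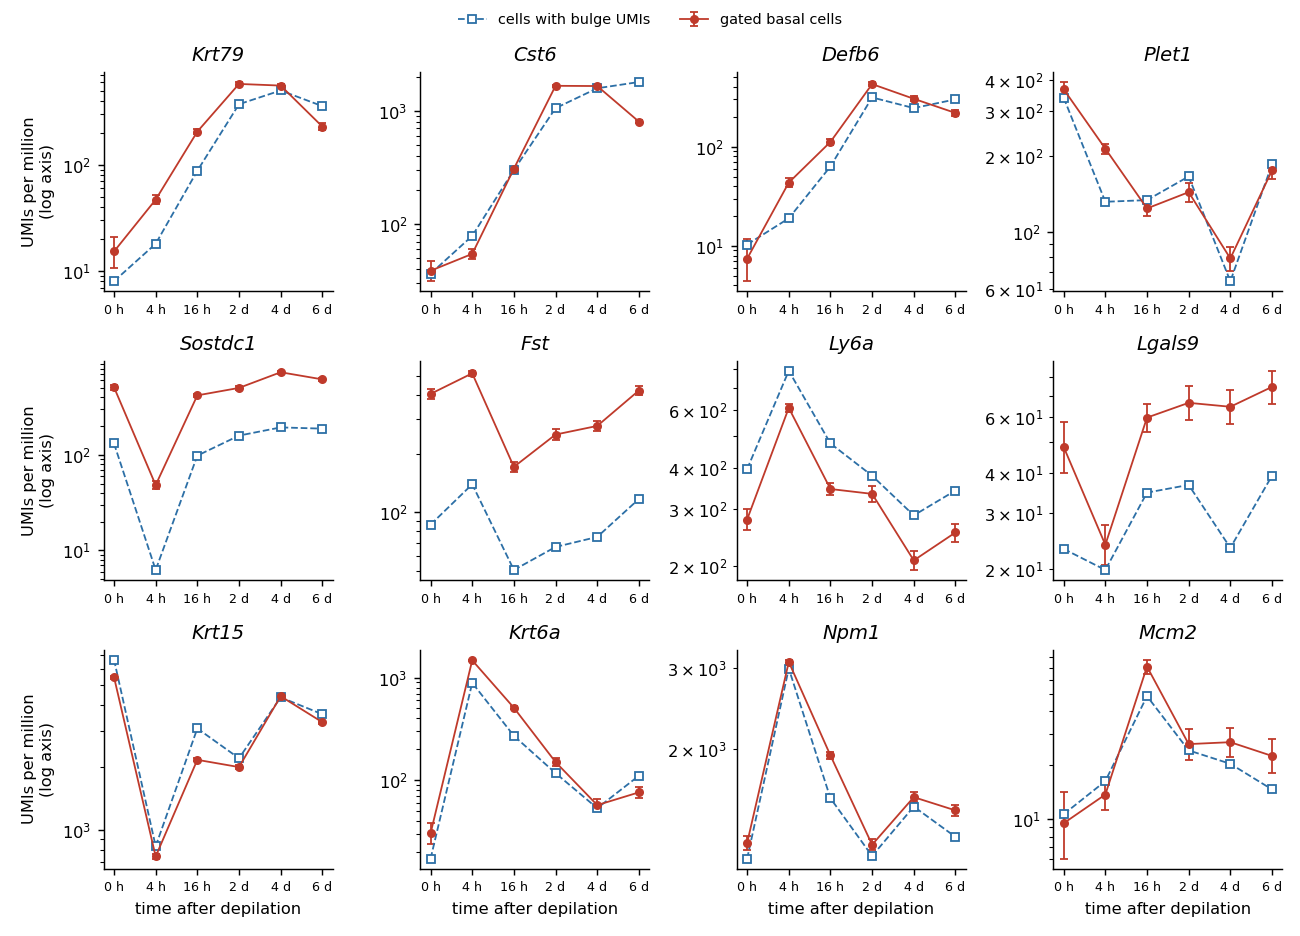
CPM of 12 genes in gated basal cells (filled, with 95% Poisson intervals) and in cells with bulge UMIs (open) in the 6 libraries, on log axes. Krt6a and Npm1 peaked at 4 h, where Sostdc1 and Krt15 were at their lowest, and Mcm2 peaked at 16 h. Sostdc1 and Fst were higher in gated basal cells than in cells with bulge UMIs in every library. T cells, not drawn, had up to 568 CPM of Krt79, 3415 CPM of Cst6 and 656 CPM of Defb6.

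Some signalling genes were also highest at 4 h, though their lists moved both ways. Of 4 Wnt pathway genes compared 1 was 2-fold higher and 1 lower at 4 h, and of 8 ERBB receptors and ligands 3 were higher and 1 lower. Wnt4, a Wnt ligand gene, stood at 206, 533, 369, 331, 359 and 310 CPM, 2.59-fold (2.36 to 2.84) over 0 h at 4 h, with at most 60.3 CPM in T cells. It was also above its 0 h level in every later library. Tgfa, an EGF receptor ligand, stood at 32.2, 79.3, 14.4, 16.2, 4.29 and 17.6 CPM. Ptgs1, a prostaglandin synthase, had 148 CPM at 4 h against 45.4 CPM at 0 h, but T cells had 115 CPM there, close to the gated cells.

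The genes lower at 4 h included division, BMP target and glucocorticoid response genes. All 10 cycling markers compared and all 9 mitosis genes compared were at least 2-fold lower, with median log2 ratios of −3.13 and −2.40. Nusap1, a spindle protein gene, stood at 52.9, 2.17, 71.9, 73.9, 85.5 and 71.4 CPM. Mki67, the proliferation marker Ki-67, stood at 165, 13, 193, 131, 212 and 186 CPM, 12.7-fold lower at 4 h than at 0 h. Both were well above their 4 h level in the 4 libraries that followed.

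Among TGF-beta and BMP genes, 6 of 9 were 2-fold lower at 4 h and 1 was higher (median log2 ratio −1.51), and 6 of 8 were lower at 16 h (−1.79). Id3, a target of BMP signalling that blocks bHLH factors, stood at 964, 92.0, 242, 349, 293 and 483 CPM, 10.5-fold lower at 4 h than at 0 h. Id2 stood at 99.6, 8.68, 11.2, 17.5, 31.0 and 50.9 CPM and Bmp2, a BMP ligand, at 84.3, 13.5, 13.2, 30.1, 20.7 and 43.0 CPM. All 3 stayed under their 0 h level at 6 d. Of the glucocorticoid responsive genes, 5 of 8, 4 of 8, 7 of 9, 6 of 9 and 2 of 9 were 2-fold lower from 4 h to 6 d, and 1 was higher at 4 d. With TMM factors 7 of 8 were lower at 16 h, and 4 in place of 1 of the 7 TGF-beta and BMP genes at 6 d. Zbtb16, which encodes the transcription factor PLZF, stood at 59.9, 3.13, 13.4, 16.0, 18.1 and 11 CPM, and Tsc22d3 (GILZ) at 28.9, 3.37, 25.6, 23.9, 18.3 and 14.4 CPM.

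Immediate early genes were lower than at 0 h in all later libraries. At least 2-fold lower were 10 of 21, 11 of 21, 12 of 21, 5 of 22 and 10 of 21 from 4 h to 6 d, with median log2 ratios of −0.90, −1.16, −1.15, −0.60 and −0.96, and none was 2-fold higher. Jun stood at 4928, 2134, 1680, 1294, 2415 and 2434 CPM and Fosb at 2746, 1302, 759, 749, 783 and 518 CPM; both encode AP-1 subunits. In ungated basal cells Jun stood at 4253, 1912, 1552, 1114, 1923 and 1817 CPM. The list summed to 35933, 18941, 15789, 15408, 24306 and 17141 CPM in gated basal cells and to 20409, 18112, 18852, 13023, 13819 and 11778 CPM in T cells, where the 4 h level was close to that at 0 h. Cell dissociation is known to induce these genes, and the part of tissue handling in their 0 h level was not tested. Irf1, an interferon-responsive transcription factor, stood at 369, 9.64, 29.3, 46.1, 78.6 and 178 CPM, 38.3-fold lower at 4 h than at 0 h (ratio 0.0261, interval 0.0205 to 0.0328). Fbxo32, which encodes the ubiquitin ligase atrogin-1, stood at 72.7, 3.13, 33.2, 37.3, 35.5 and 29.9 CPM, and Nfkbia, an inhibitor of NF-kappa-B, at 3350, 1382, 802, 1186, 1014 and 2025 CPM.

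**Figure D4:**
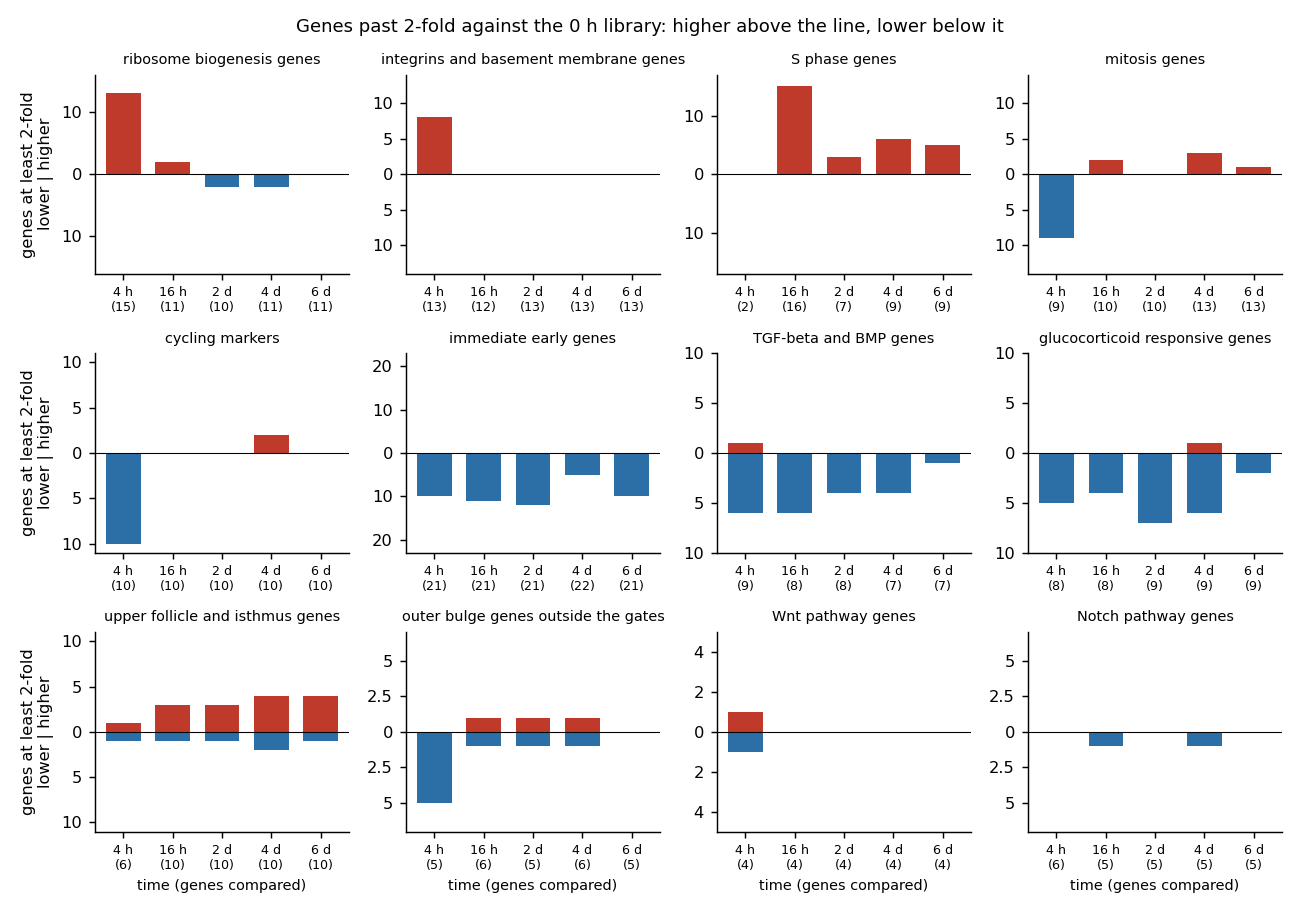
For 12 gene lists, the number of genes at least 2-fold higher (above the line) or lower (below the line) than in the 0 h library, with the number compared under each time. Ribosome biogenesis and integrin genes were higher only at 4 h in large numbers, S phase genes from 16 h on, and immediate early genes lower throughout.

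At 16 h the S phase genes stood out, with 15 of 16 compared at least 2-fold higher than at 0 h and none lower (median log2 ratio 1.78). Mcm2, a subunit of the replicative helicase, stood at 9.50, 13.7, 71.1, 26.3, 26.9 and 22.6 CPM, 7.48-fold (4.93 to 11.9) over 0 h at 16 h. Rrm2, a subunit of ribonucleotide reductase, stood at 19.4, 12.7, 86.1, 69.8, 50.5 and 54.3 CPM. Pcna, the sliding clamp of DNA polymerase, stood at 86.3, 111, 251, 127, 144 and 117 CPM. All 3 peaked at 16 h and remained above 0 h afterwards, and 3 of 7, 6 of 9 and 5 of 9 S phase genes were 2-fold higher at 2 d, 4 d and 6 d. Ccnd1, the G1 cyclin D1, had peaked earlier, at 85.9, 396, 272, 143, 156 and 128 CPM. Mitosis genes at 16 h were 2-fold higher in 2 of 10 cases (0 of 10 with TMM factors), with a median log2 ratio of 0.00.

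Cycling cells were counted as those with 2 or more UMIs of 10 cycling markers after thinning to 2000 UMIs. They made up 23.9% (19% to 29.4%), 5.84% (4.42% to 7.55%), 36.5%, 35.0%, 36.9% and 39.2% (34.6% to 44.0%) of gated basal cells, and 65.9%, 31.9%, 81.6%, 68.5%, 63.9% and 74.9% without thinning. The 4 h share was the lowest in both series, and the thinned shares from 16 h to 6 d all exceeded that at 0 h, whereas without thinning 4 d was below 0 h. In cells with bulge UMIs the thinned shares were 23.3%, 9.20%, 35.2%, 33.8%, 31.6% and 29.6%, close to the gated basal cells except for intervals apart at 4 h (8.19% to 10.3%) and 6 d (26.9% to 32.4%). In ungated basal cells they were 17.0%, 2.89%, 24.2%, 21.0%, 17.0% and 14.0%, and in outer bulge cells 14.9%, 1.89%, 15.7%, 24.9%, 29.1% and 23.6%. The ungated cells were shallower before thinning in all 6 libraries, by little at 0 h (median 8025.5 UMIs) and by more at 4 h (5397.5 UMIs). Of T cells 27.8%, 38.1%, 25.5%, 37.6%, 45.1% and 54.2% were called, although a Mki67 UMI was in only 2.58%, 0.397%, 1.09%, 2.28%, 22.6% and 9.88% of them, so the call is not specific to dividing cells across cell types. Hmgb2, a chromatin protein and the most abundant of the 10 markers, had 284 to 1015 CPM in T cells. With Hmgb2 left out, a choice made after seeing the data, the shares were 11.6%, 2.16%, 23.0%, 21.7%, 26.7% and 26.45% in gated basal cells, but still 8.70% to 34.8% in T cells. A Mki67 UMI itself was in 11.96%, 1.19%, 16.3%, 14.8%, 19.4% and 18.1% of the thinned gated basal cells, also lowest at 4 h. Within the gated basal cells, those with 5 or more Sostdc1 and Fst UMIs had cycling shares of 23.4%, 8.47%, 36.3%, 38.5%, 42.5% and 47.3% (40.9% to 53.8%). Those with 0 had 25.6%, 4.10%, 34.4%, 32.3%, 29.3% and 30.2% (23.0% to 38.3%). The order was the other way at 0 h, and the intervals of the 2 sets were apart at 6 d only.

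Cycling and non-cycling gated basal cells were then compared over the 6 libraries, with counts summed per class and library and the library as a block. Cycling cells had higher median UMIs in every library, from 8666 against 6842 at 4 d to 14268 against 10317 at 16 h. With edgeR's quasi-likelihood test and Benjamini-Hochberg adjustment, 1166 of 10064 genes (11.6%) were higher and 1182 (11.7%) lower in cycling cells, the 10 markers left out. The 2348 calls became 1392 with DESeq2, 1377 without cells holding UMIs of other cell types, 1013 with at least 6 inclusion UMIs, 1036 with an unthinned call and 343 without the block. The median log2 fold change of all genes was −0.05. All 20 mitosis genes rose (median 5.48), Plk1, a mitotic kinase, by 7.58 ± 0.30 (SE) on the log2 scale, and Pimreg and Kif2c outside the lists by 7.45 ± 0.42 and 7.43 ± 0.31. Since the markers are themselves mostly mitotic genes, this is close to what the call used. Of 20 S phase genes 18 rose, with a lower median of 1.05. Pclaf, a PCNA-associated factor, rose by 4.32 ± 0.29 (adjusted p = 0.000119), and Rrm2 by 2.76 ± 0.12 (adjusted p = 2e-15).

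Adhesion genes went the other way, with 12 of 19 integrin and basement membrane genes lower in cycling cells and 1 higher (median −0.37). Itga6 fell by 0.57 ± 0.06 (adjusted p = 1.58e-07) and Col17a1, a hemidesmosome collagen, by 0.47 ± 0.07 (adjusted p = 5.38e-06). Suprabasal differentiation genes were lower in 7 of 12 cases (median −0.50), among them Krtdap, which fell by 0.79 ± 0.08 on the log2 scale. Immediate early genes were lower in 13 of 22 cases (median −0.26). Of the glucocorticoid responsive genes 8 of 12 fell and 1 rose, Fkbp5, an immunophilin gene, by 1.00 ± 0.20 (adjusted p = 0.00063). Id3 fell by 0.61 ± 0.07 and Krt15 by 0.31 ± 0.07. Sostdc1 (0.19 ± 0.30, adjusted p = 0.727) and Fst (0.07 ± 0.06, adjusted p = 0.465) did not pass the test. Cdkn2c, a CDK4 and CDK6 inhibitor, rose by 2.45 ± 0.17, while Ccnd1 fell by 0.49 ± 0.14 (adjusted p = 0.0323). Of the 28 Wnt pathway genes tested 5 fell and none rose, and of the 12 upper follicle genes 3 fell, Klf5, Ly6a and Cst6, of which Cst6 was under the T cell level in most libraries and had up to 41.7% of its UMIs in 1 cell.

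**Figure D5:**
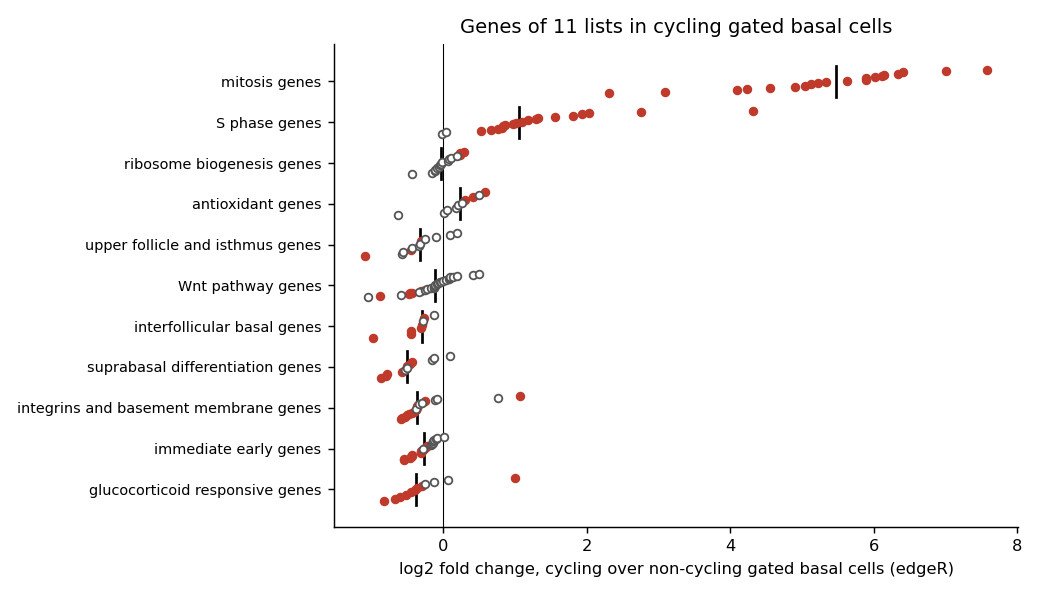
Log2 fold changes of the genes of 11 lists in cycling against non-cycling gated basal cells, edgeR over 6 libraries with the library as block; filled points passed an adjusted p of 0.05, open points did not, and ticks mark list medians. Mitosis genes lay highest (median 5.48), S phase genes around 1.05 and integrin and basement membrane genes below 0.

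Genes that are transcribed in G2 and mitosis often carry a cell cycle homology region, TTTGAA, near their start, through which they are held silent in resting cells. The motif TTTGAA was looked for on both strands in windows from 250 bases before to 50 bases after each gene start (300 bases, RefSeq, GRCm38.p6). A gene was counted when any of its windows held the motif. It was present in 5466 of all 27025 genes (20.2%), in 14 of the 17 mitosis genes matched (82.4%) and 7 of the 9 cycling markers matched (77.8%). In contrast, 1 of 16 S phase genes (6.25%), 1 of 12 ribosome biogenesis genes (8.33%) and 2 of 13 integrin and basement membrane genes (15.4%) had it. The 100 bases before the start are shown for 3 mitosis genes, Cdk1, Cdc20 and Kif11, picked because the motif lay wholly within those bases. The positions given below therefore do not stand for the other mitosis genes with the motif. All 3 are from the list in which all 9 genes compared were lower at 4 h and all 20 rose in cycling cells. Capitals mark the motif or, in Kif11, its reverse complement TTCAAA, and the strand shown is that of the gene. The windows are chr10:69352913-69353012 (minus strand, overlapping an annotated Cdk1 exon), chr4:118437344-118437443 (minus strand, overlapping a Cdc20 exon) and chr19:37376282-37376381 (plus strand, no annotated gene).
Cdk1: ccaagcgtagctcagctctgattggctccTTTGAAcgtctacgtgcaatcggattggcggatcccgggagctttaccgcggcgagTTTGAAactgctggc
Cdc20: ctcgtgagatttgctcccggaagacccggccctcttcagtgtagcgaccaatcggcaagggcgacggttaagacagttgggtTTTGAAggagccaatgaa
Kif11: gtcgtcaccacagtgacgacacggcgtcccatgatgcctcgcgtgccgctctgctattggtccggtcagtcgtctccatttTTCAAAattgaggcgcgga
The motif began 71 and 15 bases before the start in Cdk1, 18 in Cdc20 and 19 in Kif11. A match is a description of the sequence and does not show that a factor binds there.

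Other lists held signalling and survival genes. None of the 4 Wnt pathway genes compared was 2-fold off 0 h from 16 h on. Beside Wnt4, Wls, which carries Wnt ligands to the cell surface, stood at 137, 51.9, 90.0, 146, 107 and 120 CPM, and Axin2, a target of Wnt signalling, at 30.2, 14.2, 16.0, 15.5, 17.9 and 15.5 CPM. Of the Notch pathway, Hes1, a transcriptional target, stood at 753, 454, 334, 422, 229 and 444 CPM. It was 3.29-fold lower at 4 d than at 0 h, while the ligand gene Jag2 stayed within 112 to 155 CPM. In the Bcl-2 family, Mcl1, a survival gene, stood at 484, 318, 207, 294, 259 and 204 CPM, against 294, 293, 253, 222, 208 and 208 CPM in T cells. The effector genes Bax and Bok were 2.29-fold and 2.40-fold over 0 h at 4 h, and Bbc3 (PUMA), a p53-induced death gene, stood at 37.6, 4.82, 7.98, 13.6, 16.0 and 27.6 CPM. Among 6 p53 targets compared, 2 were 2-fold higher and 3 lower at 4 h. Phlda3 stood at 78.5, 448, 174, 105, 133 and 136 CPM and Trp53inp1 at 50.8, 1.21, 22.9, 36.3, 21.7 and 33.1 CPM, which are opposite directions at 4 h.

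Over the whole time course no gene passed the test. A spline of time with edgeR's quasi-likelihood test called 0 of 10704 genes (0.0%), with 145 at an unadjusted p under 0.05, and DESeq2 called 22. Days (2 d, 4 d, 6 d) against hours (0 h, 4 h, 16 h) called 0 of 10325 genes (0.0%), with 343 at an unadjusted p under 0.05, and DESeq2 called 19. The lowest p of the second test was that of Klk7, a protease of cornified layers, at 7.02, 18.3, 14.7, 69.8, 119 and 109 CPM (log2 fold change 2.88 ± 0.37, adjusted p = 0.414). T cells had 18.5, 203, 73.6, 79.9, 78.5 and 370 CPM of Klk7, as much or more in 5 of the 6 libraries. The lowest p of the first was that of Cst6, whose T cell levels are given above. Leaving out the 0 h library raised the time course calls to 280. With 1 library per time the spline left 2 residual degrees of freedom.

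The change from hours to days was then compared between the gated and the ungated basal cells of the same libraries, with the library as a block. It differed for 44 of 11227 genes by edgeR's quasi-likelihood test, 3 with a higher change in gated basal cells (0.0267%) and 41 with a lower one (0.365%). Ctsd, which encodes the lysosomal protease cathepsin D, stood at 86.3, 134, 227, 189, 179 and 144 CPM in gated and at 105, 111, 350, 633, 690 and 627 CPM in ungated cells (−1.71 ± 0.21 on the log2 scale, adjusted p = 0.0102). Fbxo32 stood at 49.8, 0.945, 36.6, 105, 122 and 105 CPM in ungated cells (−1.91 ± 0.22, adjusted p = 0.00106). Glul, glutamine synthetase, stood at 35.9, 3.86, 27.0, 52.5, 82.2 and 51.4 CPM in gated and at 36.0, 3.78, 24.4, 98.6, 183 and 113 CPM in ungated cells (−1.14 ± 0.18, adjusted p = 0.0102). In these 3 genes the populations were closer at 0 h and 16 h than on the later days, on each of which the ungated cells were higher. For 36 of the 44 the ungated cells were over 1.5-fold higher in days than in hours, and the gated basal cells moved over 1.5-fold either way for 15. The 44 genes were picked by this difference and the shares over all genes tested were not counted, so these counts only describe the genes called. Itgb6, with Prss23 and S100a8, was among the 3 with a higher change in gated basal cells (1.54 ± 0.26, adjusted p = 0.0137). Itgb6 and Prss23 fell from hours to days in both populations, and by more in ungated cells. For Itgb6 the mean went from 23.48 to 17.75 CPM in gated and from 30.65 to 7.66 CPM in ungated cells. For Prss23 it went from 107.7 to 82.75 CPM in gated and from 80.1 to 30.64 CPM in ungated cells. The result depended on the comparison cells and on single libraries. Of the genes given here, the difference against cells with bulge UMIs turned positive for Ctsd (0.069) and Glul (0.54). It turned negative there for Itgb6 (−0.33) and Prss23 (−0.43). Against outer bulge cells the difference turned positive for Ctsd (0.091), Fbxo32 (0.37) and Glul (0.70). Against cells with bulge UMIs 28 genes were called, 4 of them shared, and without the 4 d or the 6 d library 4 of the 44 remained.

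Genes of other cell types were low in the gated basal cells but not level. The 10 T cell genes summed to 90.5, 88.7, 141, 184, 225 and 125 CPM, led by Trbc2, against a mean of 17535 CPM in T cells. The 10 Langerhans cell genes summed to 52.1, 70.9, 163, 225, 69.3 and 437 CPM, led by Cd74, with 27.7% to 67.3% of the Cd74 UMIs of a library in 1 cell. Melanocyte genes reached 40.3 CPM at 4 d and at most 12.4 CPM elsewhere, and fibroblast genes were led by Sparc, which keratinocytes here held as well. Col1a1 had at most 3.81 CPM in any library, and Col3a1 was at 0 in all but the 4 d library. S100a8, which neutrophils express strongly, had 66.7%, 68.5%, 21.4% and 45.2% of its UMIs in 1 cell from 16 h to 6 d, so that its 0.826, 0.723, 25.8, 54.9, 24.5 and 96.3 CPM rest on few cells.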

How the data were processed

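The files were the authors' filtered 10x Genomics 3' matrices, 1 per library, which the authors deposited as raw UMI counts of 32285 genes per barcode. The submitters' processing notes name Cell Ranger 6.1.2 and mm10. Each library held 72634390 to 112370376 UMIs. How reads of overlapping genes were assigned is not given in the sources used here.

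Cells were chosen by the gate in the report, and the cells and the gene lists were chosen with earlier results of these data known. Counts were summed per population and library with Python 3.11.15, numpy 2.4.6, scipy 1.17.1 and pandas 2.3.3, and figures drawn with matplotlib 3.10.9. Sums per library and the quasi-likelihood method follow the study's methods, and the other settings were chosen here. Sums were tested in R 4.3.3 by the robust quasi-likelihood fit of edgeR 4.0.16 (with limma 3.58.1), after filterByExpr and with TMM factors, at a false discovery rate of 0.05 over all genes tested, and DESeq2 1.42.0 was an alternative. The scripts were checked on simulated data. Single libraries were set against 0 h by CPM ratios with conditional binomial intervals. Genes of the gate, and in the cycling comparison the 10 markers, were left out of the fits.

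Genes were named by rule: the gate and label markers, the smallest p-values of each fit, the largest differences between populations and against 0 h, and up to 4 genes of each list with the widest range; others named beside them were chosen after their values were seen. A gene counted as 1-sided between populations when at least 2-fold apart in all 6 libraries. Thinning drew 2000 UMIs from each cell without replacement and left out shallower cells. Alternatives changed the normalization, the filter on low counts, the gate, the depth of the cells, the comparison cells and the libraries used. Populations of 1 library share its mice and handling, so the library was the block of both comparisons within libraries, and nothing pairs different time points. RefSeq promoter windows were matched by gene symbol. Some genes are not reported here, and counts of genes include them.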

Additional observations from a re-analysis of the deposited data

Results flagged for a closer look

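In the comparison of days with hours, 44 genes changed differently in the gated basal cells and in the ungated basal cells of the same libraries, by the test of that difference with the library as a block (edgeR's quasi-likelihood test). Each value here is the log2 change from hours to days in gated basal cells minus that in ungated basal cells. The 3 positive values were Itgb6 1.54, Prss23 1.03 and S100a8 1.80, and a single cell held 21.4% to 68.5% of the S100a8 UMIs of each library from 16 h on. With cells with bulge UMIs as the comparison, Itgb6 (−0.33) and Prss23 (−0.43) were negative. The negative values given here were, from the largest in size, Dclk1 −5.72, Krt6b −5.46, Ednra −3.38, Enpp1 −2.51, Rarres1 −2.37, Crabp2 −2.04, Mitf −2.04 and Fbxo32 −1.91. Values between those and −1.10 were Rhou −1.89, Cd200 −1.72, Ctsd −1.71, Itgb8 −1.55, Abi3bp −1.51, Crot −1.48, Fam234a −1.44, 1110008P14Rik −1.39, Pik3r1 −1.31, Tmem64 −1.23, Aadac −1.21, Jmy −1.20, Sgpp1 −1.14, Glul −1.14, Camsap3 −1.14, Lima1 −1.14, Foxq1 −1.13 and Tcf4 −1.11. Below these in size were Sgpl1 −1.07, Myo18a −1.03, Cpe −1.01, Marcks −0.93, Ppdpf −0.91, Afdn −0.85, Efnb2 −0.83, Sdc1 −0.82, Atp6v1g1 −0.81, Myo10 −0.78, Spint2 −0.73 and Apoe −0.64. Several of the larger values rest on low levels in the gated basal cells. Dclk1, Mitf, Rarres1, Enpp1, Rhou and Ednra had at most 10.3, 10.3, 9.77, 6.43, 6.3 and 3.22 CPM in them. Krt6b had at most 69.1 CPM in them and did not exceed the T cells at 4 h. In 36 of the 44 genes the ungated basal cells were over 1.5-fold higher in days than in hours. The genes were picked by the difference of changes, and the share over all genes tested was not counted. The ungated basal cells were chosen by 0 UMIs of 10 genes and had lower median depths than the gated basal cells in all 6 libraries, and the part of that choice in these differences was not tested. Dclk1, Crabp2, Mitf and Enpp1 were also called against cells with bulge UMIs.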

How the results depend on the processing

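The order of the libraries by share and by cycling changed in part with the depth of the cells, as given below. Having 1 library per time limits every statement on time. The time course called 22 genes with DESeq2, 1 with 6 or more inclusion UMIs, 19 with time as log2(hours + 1), and 0 to 280 with each library left out, 280 without 0 h and 45 without 4 h. Days against hours called 19 with DESeq2, 4 without a filter and 1 with equal cells per library. The difference of that change between gated and ungated basal cells was called for 318 genes without a filter, 27 without the robust option, 80 without cells holding 2 or more UMIs of other lineages, 110 among cells of 4000 to 15000 UMIs, 19 against outer bulge cells (2 shared), 28 against cells with bulge UMIs (4 shared), and 4 to 131 with each library left out. Among the genes with the smallest p-values, Fbxo32 (0.37), Pik3r1 (0.030), Ctsd (0.091), Glul (0.70) and Tcf4 (0.12) turned positive against outer bulge cells. Of all 44 genes, Ctsd (0.069), Glul (0.54), Tcf4 (0.087), Cpe (0.11) and Apoe (0.12) turned positive against cells with bulge UMIs. Itgb6 (−0.33) and Prss23 (−0.43) turned negative against the same cells. Cycling against non-cycling cells gave 1392 calls with DESeq2 (1378 shared), 1377 without cells holding other-lineage UMIs, 1013 with 6 or more inclusion UMIs and 1036 with the cycling call unthinned (940 shared), where Basp1 (0.38), Zeb1 (0.84) and Krt6b (0.75) turned positive. The causes were not tested.

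With no replicate block, where populations of 1 library are not paired, the difference of changes was called for 0 genes and cycling against non-cycling for 343, all 343 among those with the block. The time course and days against hours have 1 sum per library, so nothing could be paired there.

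Gated basal cells with 6 or more inclusion UMIs were 2.25%, 8.11%, 2.49%, 1.70%, 2.59% and 2.36% of basal keratinocytes, and with no limit on bulge genes 59.2%, 73.6%, 62.3%, 45.5%, 34.6% and 35.7%. Without other-lineage cells the shares were 8.18% at 0 h, 20.3% at 4 h and 8.69% at 4 d. Thinned to 5000 UMIs they were 7.63%, 18.35%, 7.18%, 7.25%, 10.22% and 8.07%, with 16 h and 2 d under 0 h. Cycling shares were 65.9%, 31.9%, 81.6%, 68.5%, 63.9% and 74.9% unthinned, 50%, 24.6%, 62.2%, 55.9%, 56.8% and 61.5% with 1 or more UMIs, and 14.5%, 2.38%, 26.7%, 25.4%, 29.2% and 30.4% with 3 or more. Without Hmgb2 among the markers, a setting added after seeing the data, they were 11.6%, 2.16%, 23.0%, 21.7%, 26.7% and 26.45%. With 6 or more inclusion UMIs they were 41.8%, 44.7% and 50.5% at 16 h, 2 d and 6 d, without other-lineage cells 28.9%, 30.7% and 33.5% at 16 h, 4 d and 6 d, and at 4000 to 15000 UMIs 26.9% at 16 h. The 4 h library had the highest share of gated basal cells and the lowest share of cycling cells under each of these settings that covers all libraries.

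Of the counts of genes 2-fold apart in all 6 libraries, those higher than outer bulge cells were 5 (TMM), 1 (no other-lineage cells), 4 (6 inclusion UMIs), 1 (4000 to 15000 UMIs) and 5 (per cell), and those lower were 8 (no other-lineage cells). Lower than cells with bulge UMIs were 0 and 0 (no other-lineage cells, 6 inclusion UMIs), and higher were 6 and 19 (6 inclusion UMIs, 4000 to 15000 UMIs). Sparc, one of the lower genes in the main setting, is on the other-lineage lists and so part of that filter. Higher than ungated basal cells were 32 and 21 under the same 2 settings. Against 0 h, TMM factors left 264 genes higher at 16 h and 133 at 4 d, and 6 inclusion UMIs gave 136, 336 and 182 higher at 2 d, 4 d and 6 d and 165 lower at 6 d, with S100a9 at 2 d (−0.13) and Vim at 6 d (−0.30) turned negative.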
